A study of Mus musculus with 9 samples.

Results

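The genes described here are 8 that mark GABAergic neurons: Gad1, Gad2 and Slc32a1, which make and package the inhibitory transmitter GABA, and Gata2, Gata3, Tal1, Tal2 and Sox14, transcription factors of the GABAergic fate. They were taken by symbol through the gene identifiers, and all 8 were found among the 47729 genes counted. Each of the 8 passed the filter on low counts that left 17988 genes for testing.

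Gad1 and Gad2 encode the glutamate decarboxylases GAD67 and GAD65, which make GABA from glutamate, and Slc32a1 encodes VGAT, the transporter that loads GABA and glycine into synaptic vesicles. In the embryonic midbrain Gata2 is the factor that selects the GABAergic over the glutamatergic fate, with Tal1 and Tal2 acting as its partners and Gata3 following in the same lineage, while Sox14 marks subsets of the resulting neurons. Midbrain dopamine (DA) neurons arise separately in the floor plate and use tyrosine hydroxylase and the vesicular monoamine transporter, but some of them are known to release GABA as well.

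The libraries came from YFP-positive cells of the midbrain of mouse embryos at E15.75, isolated by fluorescence-activated cell sorting (FACS) on a C57/Bl6 background. Every embryo, controls included, carried Pitx3-Cre/+, so that Cre came from 1 Pitx3 allele in post-mitotic DA precursors, and the Rosa-lox-stop-lox-Yfp reporter. The groups differed in Dot1l, the gene of the histone H3 lysine 79 methyltransferase, which was +/+ in 3 libraries, +/fl in 3 and fl/fl in 2, with loxP sites around exon 5. They are named Dot1l(+/+), Dot1l(fl/+) and Dot1l(fl/fl) below, and Dot1l(fl/fl) 3 was not analysed here. By the methods, cells of several embryos were pooled into a library, and each litter gave 1 set of the genotypes. No label says which litters a replicate came from, so p-values measure only the spread between these libraries.

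Library totals ran from 13616922 to 43674673 counts, and 3 counts, the most that 0 counts allow, equalled 0.0694 to 0.216 CPM (counts scaled by library size and TMM factors). Such a limit covers counting error only. Dot1l itself stood at 105, 84.6 and 94.6 CPM in Dot1l(+/+), at 75.5, 65.6 and 76.2 CPM in Dot1l(fl/+), and at 64.9 and 99.1 CPM in Dot1l(fl/fl) 1 and 2. The last value lies inside the Dot1l(+/+) range, so Dot1l(fl/fl) 2 stands below for the library so labelled. Several fold changes are also given with it left out. Whole-gene counts do not show how much of exon 5 was lost. The cells carried the defining genes of DA neurons, with Th at 991 CPM and Slc18a2 at 470 CPM on average in Dot1l(+/+).

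The promoters of the 3 transmitter genes are shown because these genes serve 1 pathway and differed widely in level in the same libraries, as given after them. Each window is RefSeq sequence on GRCm38.p6, read 5′ to 3′ on the strand of the gene, from 250 bases before the annotated start to 50 after it. Capitals mark 3 kinds of letters on either strand. The first kind, read by GATA factors, is AGATAA or AGATAG, or else TGATAA or TGATAG. The next is CAGNTG, an E-box that includes CAGATG, the form read by TAL1 with its partners, and the last is TATAAA. The Gad1 window lies at chr2:70561879-70562178, that of Gad2 at chr2:22622077-22622376 and that of Slc32a1 at chr2:158610508-158610807, all on the plus strand.
Gad1: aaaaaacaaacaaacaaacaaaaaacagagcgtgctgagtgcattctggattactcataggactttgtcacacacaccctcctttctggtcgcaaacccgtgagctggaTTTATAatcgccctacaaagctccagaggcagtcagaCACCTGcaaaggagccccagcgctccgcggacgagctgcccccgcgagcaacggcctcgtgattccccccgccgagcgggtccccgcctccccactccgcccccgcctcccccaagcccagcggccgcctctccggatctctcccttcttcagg
Gad2: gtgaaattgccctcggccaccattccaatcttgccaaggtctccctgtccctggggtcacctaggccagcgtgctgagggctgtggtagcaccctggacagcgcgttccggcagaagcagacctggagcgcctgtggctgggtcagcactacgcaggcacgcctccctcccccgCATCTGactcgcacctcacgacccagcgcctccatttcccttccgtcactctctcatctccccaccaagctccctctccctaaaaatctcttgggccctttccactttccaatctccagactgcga
Slc32a1: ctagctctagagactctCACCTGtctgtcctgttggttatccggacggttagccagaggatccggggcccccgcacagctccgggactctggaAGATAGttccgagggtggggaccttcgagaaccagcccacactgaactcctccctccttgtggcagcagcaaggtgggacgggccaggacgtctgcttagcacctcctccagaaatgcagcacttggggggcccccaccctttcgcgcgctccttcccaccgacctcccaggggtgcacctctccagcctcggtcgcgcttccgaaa
The Gad1 window holds TTTATA, which is TATAAA on the other strand, at −141 from the start. It also holds the E-box letters CACCTG at −104. The Gad2 window holds CATCTG, which is CAGATG on the other strand, at −76. The Slc32a1 window holds CACCTG at −233 and AGATAG at −157, and is the only one of the 3 with GATA letters. Among 32851 annotated windows of 300 bases, 29.8% held GATA letters, 51.4% held CAGNTG, 17.2% held CAGATG and 13.6% held TATAAA, so each kind of match is common. A match is a description of letters and says nothing of binding.

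The windows of the 5 factors hold similar letters. The Gata3 window, at chr2:9878551-9878850 on the minus strand, holds CAGCTG at −1 and TGATAG 37 bases after the start, and is printed because Gata3 was the GATA factor detected in every library.
Gata3: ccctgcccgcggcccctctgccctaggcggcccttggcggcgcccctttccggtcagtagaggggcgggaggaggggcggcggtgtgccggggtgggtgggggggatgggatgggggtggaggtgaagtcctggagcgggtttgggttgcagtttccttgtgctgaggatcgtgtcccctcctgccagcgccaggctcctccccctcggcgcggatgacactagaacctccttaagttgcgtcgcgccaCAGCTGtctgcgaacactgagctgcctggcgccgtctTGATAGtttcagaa
The Sox14 window holds CTATCA, the other strand of TGATAG, at −233, and CAGGTG at −134 and 23. The first Tal1 window holds TTATCT at −205 and CATCTG at 11, and the Tal2 window holds TATAAA at −30. Of the 2 Gata2 windows, 1 holds CAGCTG at 18 and neither holds GATA letters. GC content was 60.0% in the Gad1 window, 61.3% in that of Gad2 and 63.3% in that of Slc32a1, against a median of 52.7% over all windows.

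The sorted cells held abundant Slc32a1 and Gad2 transcripts, little Gad1 and only traces of the fate factors. Per length, in TPM (counts over the union of annotated exons, scaled to the same sum in every library), Slc32a1 averaged 155 ± 19.1 TPM (SD, n = 8 libraries) and Gad2 averaged 57.7 ± 5.57 TPM. Gad1 averaged 3.27 ± 1.3 TPM, Tal1 2.54 ± 1.13 TPM, Sox14 1.7 ± 1.63 TPM and Gata3 1.18 ± 0.83 TPM. Tal2 and Gata2 came last, at 0.466 ± 0.611 TPM and 0.187 ± 0.285 TPM. The lowest library for Slc32a1, at 138 TPM, lay above the highest for Gad2, at 66.2 TPM, and the lowest for Gad2, at 50.2 TPM, lay above the highest of every other member, 5.31 TPM for Gad1. Below Gad2 the ranges of neighbours in this order overlapped, so their order is not resolved by these libraries, although every Gad1 value lay above the highest of Tal2, at 1.35 TPM, and of Gata2, at 0.671 TPM.

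Against the other genes in Dot1l(+/+), the TPM of Slc32a1 lay above 92.2% and that of Gad2 above 78.7% of the 17919 tested genes with a length. The figure was 30.6% for Gad1, 27.6% for Tal1, 17.3% for Gata3, 16.1% for Sox14, 7.6% for Tal2 and 4.07% for Gata2. For scale, Slc18a2, the vesicular monoamine transporter, averaged 300 ± 52.6 TPM over the 8 libraries, and Slc17a6, the vesicular glutamate transporter VGLUT2, averaged 129 ± 9.91 TPM. Th, tyrosine hydroxylase, averaged 1410 ± 199 TPM. In bulk RNA fewer cells of a type and less RNA per cell cannot be told apart, so these levels do not show which of the sorted cells carried the transcripts.

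**Figure D1:**
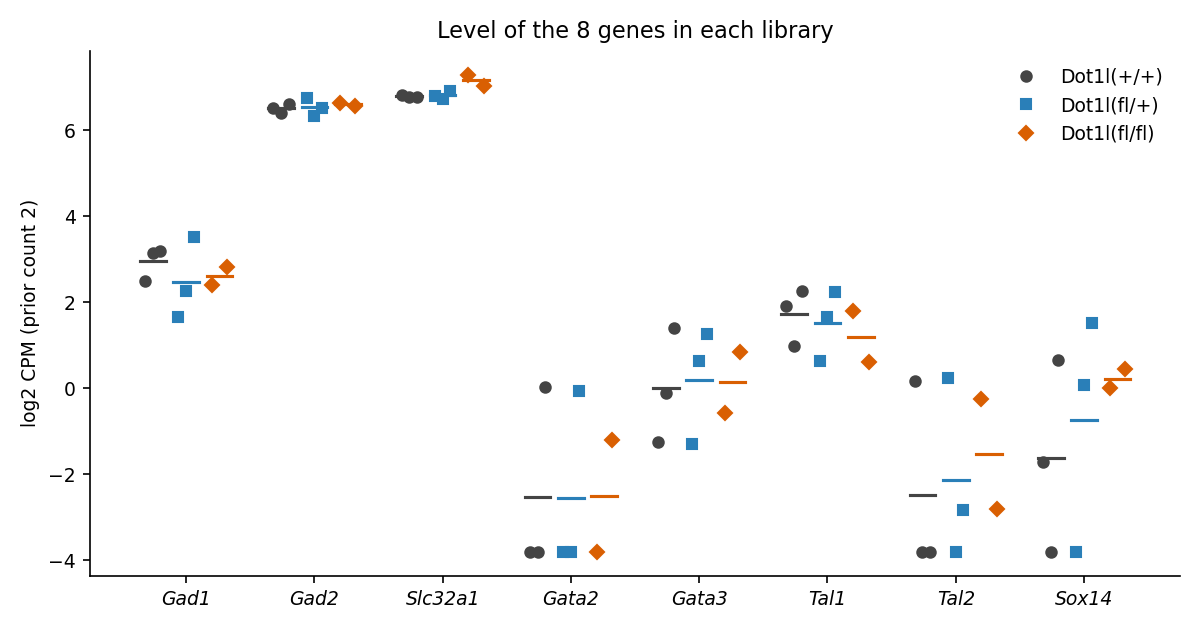
Level of each of the 8 genes in each library, as log2 CPM with a prior count of 2, with the 3 genotypes in separate colours and short lines at the group means. Gad2 and Slc32a1 lie near the top in all 8 libraries, and Gata2, Tal2 and Sox14 each include libraries at a count of 0, which appear on the lowest line of the plot.

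Gad2 (ENSMUSG00000026787, chromosome 2, 22622205 to 22693874 on GRCm38, plus strand) was the steadiest member. It stood at 90.9, 83.7 and 97.4 CPM in Dot1l(+/+), at 108, 80.5 and 92.0 CPM in Dot1l(fl/+), and at 98.8 and 95.2 CPM in Dot1l(fl/fl). The 3 groups overlapped throughout. Its log2 fold change from Dot1l(+/+) to Dot1l(fl/fl) was 0.10 ± 0.13 (SE), with a 95% interval from −0.17 to 0.36 and an adjusted p of 0.912 by the quasi-likelihood test of edgeR. From Dot1l(+/+) to Dot1l(fl/+) it was 0.04 ± 0.11, with an interval from −0.19 to 0.28. Its coefficient of variation (CV) over the 8 libraries was 9.29%, near the median of 9.75% over the 2389 genes within 1.5-fold of its mean level.

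Slc32a1 (ENSMUSG00000037771, chromosome 2, 158610767 to 158615748, plus strand) had its highest values in Dot1l(fl/fl). It stood at 113, 108 and 110 CPM in Dot1l(+/+), at 111, 106 and 120 CPM in Dot1l(fl/+), and at 156 and 129 CPM in Dot1l(fl/fl) 1 and 2. Both Dot1l(fl/fl) libraries therefore lay above the 6 others, a pattern found in 4.7% of all genes tested. Of the 8 members it was the only one whose libraries did not overlap in Dot1l(fl/fl) against Dot1l(+/+), where 12.1% of all genes were higher without overlap and 11.6% lower. The mean was 143 CPM against 110 CPM, a log2 fold change of 0.37 ± 0.11 with a 95% interval from 0.14 to 0.61, and an unadjusted p of 0.00325 in edgeR. Before adjustment 9.27% of all genes had a p under 0.05 in this comparison. After adjustment over all genes p was 0.269, so Slc32a1 did not pass, and neither did any other gene in this comparison. DESeq2, which adjusted over 6828 genes against 17988 in edgeR, put its adjusted p at 0.0397 for a log2 fold change of 0.375. That was past the threshold, among 183 genes that DESeq2 called. Without Dot1l(fl/fl) 1 the edgeR fold change fell to 0.227, and with Dot1l(fl/fl) 2 left out instead it was 0.499. Adjusted p-values with 1 library left out ran from 0.0777 to 0.794.

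Against Dot1l(fl/+) the Slc32a1 log2 fold change in Dot1l(fl/fl) was 0.35 ± 0.11 (unadjusted p 0.00571, adjusted p 0.998, edgeR), again without overlap, which 10.2% of all genes showed in that direction. This comparison shares the Dot1l(fl/fl) libraries with the one above. In Dot1l(fl/+) against Dot1l(+/+) it was 0.03 ± 0.10, with an interval from −0.18 to 0.24. The antisense gene Gm14205 overlaps Slc32a1, and with the strand setting of the counting not given their reads cannot be told apart, but Gm14205 had at most 53 counts in a library. Per length, the ratio of Slc32a1 to Gad2 ran from 2.37 to 2.72 in Dot1l(+/+), from 2.17 to 2.77 in Dot1l(fl/+) and was 3.32 and 2.85 in Dot1l(fl/fl) 1 and 2.

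Slc18a2, which fills vesicles with dopamine and is also held to carry GABA in DA neurons, had a fitted change in the other direction. It stood at 536, 410 and 464 CPM in Dot1l(+/+), at 485, 449 and 338 CPM in Dot1l(fl/+), and at 353 and 400 CPM in Dot1l(fl/fl), a log2 fold change of −0.32 ± 0.13 (adjusted p 0.415, edgeR) against Dot1l(+/+). The ratio of Slc18a2 to Slc32a1 per length ran from 2.02 to 2.55 in Dot1l(+/+) and from 1.51 to 2.33 in Dot1l(fl/+), and was 1.21 and 1.66 in Dot1l(fl/fl) 1 and 2. The Dot1l(fl/fl) libraries were thus below every Dot1l(+/+) library in this ratio and overlapped the lowest Dot1l(fl/+) library. No test was run on it. Slc17a6 stood at 188, 196 and 189 CPM on average in the 3 genotypes.

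Gad1 (ENSMUSG00000070880, chromosome 2, 70553072 to 70602014, plus strand) was low and uneven. It stood at 5.6, 8.8 and 9.14 CPM in Dot1l(+/+), at 3.09, 4.67 and 11.4 CPM in Dot1l(fl/+), and at 5.25 and 7.06 CPM in Dot1l(fl/fl). Dot1l(fl/+) held both the lowest and the highest library. The log2 fold change against Dot1l(+/+) was −0.36 ± 0.41 in Dot1l(fl/fl) (interval −1.21 to 0.50) and −0.30 ± 0.36 in Dot1l(fl/+) (interval −1.05 to 0.44), both with adjusted p of 0.886 or above in edgeR. The Dot1l(fl/fl) value was −0.158 without Dot1l(fl/fl) 1 and −0.583 without Dot1l(fl/fl) 2. Its CV was 39.8%, higher than that of 94.0% of the 1645 genes of like level.

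Gad1 also shares sequence with a processed pseudogene, Gad1-ps, so that reads may have been split between them and its level is uncertain. Gad1-ps had 3, 11 and 38 counts in Dot1l(+/+), 0, 0 and 27 in Dot1l(fl/+), and 20 and 6 in Dot1l(fl/fl), or between 0% and 20.8% of the Gad1 count. Adding them would not bring Gad1 near Gad2. Gad1 reads were 2.79% to 11.0% of the summed Gad1 and Gad2 reads, and the highest share, in Dot1l(fl/+) 3, had a 95% Wilson interval from 9.9% to 12.2%. Per length of the union of exons the ratio of Gad2 to Gad1 ran from 10.5 to 45.4 with a median of 19.3, and with the longest transcript of each gene in place of the union it ran from 5.08 to 21.9. Gad2 was therefore above Gad1 in 8 of 8 libraries on both length scales, and the size of the gap depends on which transcripts are counted.

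**Figure D2:**
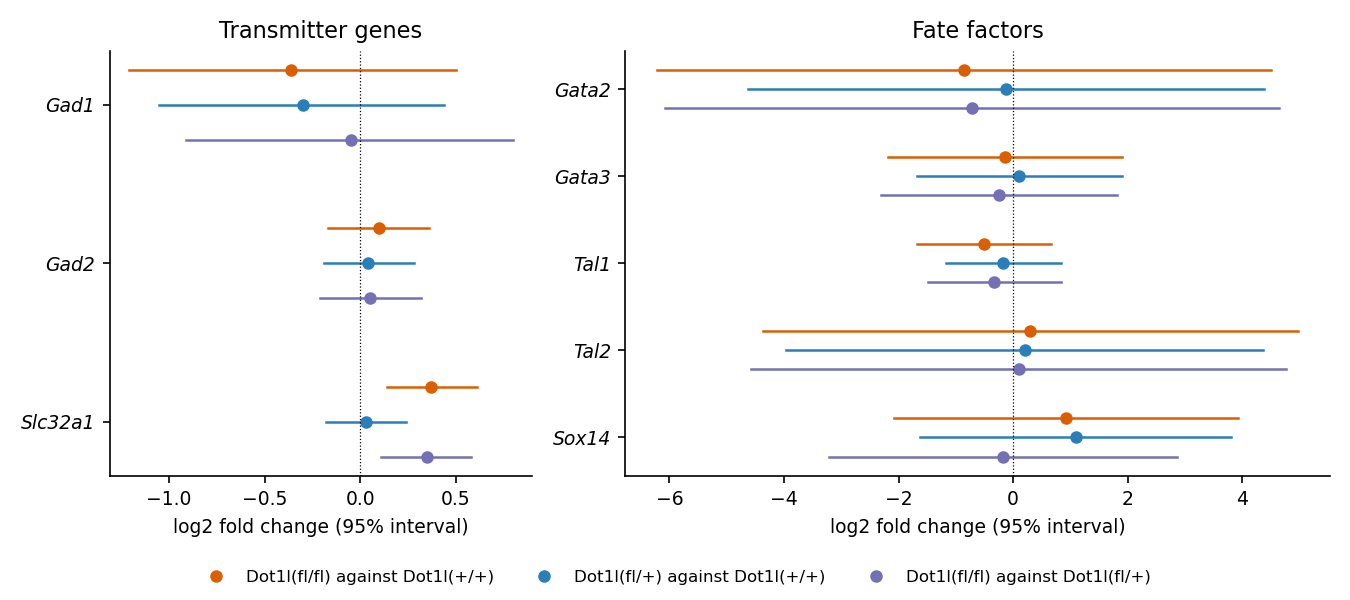
Log2 fold change (points) with 95% intervals (lines) of the 3 transmitter genes on the left and the 5 fate factors on the right, in the 3 comparisons of genotypes. The scales of the panels differ. Only the intervals of Slc32a1 in both comparisons with Dot1l(fl/fl) leave out 0, before adjustment over all genes, and those of Gata2 and Tal2 span several doublings in either direction.

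Of the 5 fate factors, Tal1 and Gata3 had reads in all 8 libraries, while Gata2, Tal2 and Sox14 were at 0 in some, and none was without overlap between genotypes. Tal1 (ENSMUSG00000028717, chromosome 4, 115056426 to 115071755, plus strand), which pairs with E proteins, had the highest mean TPM of them. It stood at 3.71, 1.91 and 4.74 CPM in Dot1l(+/+), at 1.48, 3.09 and 4.6 CPM in Dot1l(fl/+), and at 3.39 and 1.44 CPM in Dot1l(fl/fl). The log2 fold change in Dot1l(fl/fl) against Dot1l(+/+) was −0.51 ± 0.56, with an interval from −1.67 to 0.66. It was −1.26 without Dot1l(fl/fl) 1 and −0.0286 without Dot1l(fl/fl) 2.

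Gata3 (ENSMUSG00000015619, chromosome 2, 9857078 to 9890034, minus strand) had reads in 8 of 8 libraries. It stood at 0.347, 0.854 and 2.59 CPM in Dot1l(+/+), at 0.336, 1.48 and 2.32 CPM in Dot1l(fl/+), and at 0.601 and 1.73 CPM in Dot1l(fl/fl). Within each genotype Gata3 thus rose with the replicate number. The ranges of the genotypes overlapped nearly in full, and the log2 fold change in Dot1l(fl/fl) was −0.14 ± 0.99 against Dot1l(+/+). Gata2 (ENSMUSG00000015053, chromosome 6, 88193891 to 88207032, plus strand), the selector of this lineage, had 0, 0 and 41 reads in Dot1l(+/+), 0, 0 and 25 in Dot1l(fl/+), and 0 and 5 in Dot1l(fl/fl). It was thus undetected in 5 libraries, and in each genotype a single library held all of its reads.

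Tal2 (ENSMUSG00000028417, chromosome 4, 53779705 to 53788712, plus strand) was likewise concentrated, but in replicate 1 of each genotype. It had 27, 0 and 0 reads in Dot1l(+/+), 33, 0 and 2 in Dot1l(fl/+), and 14 and 1 in Dot1l(fl/fl). Sox14 (ENSMUSG00000053747, chromosome 9, 99874106 to 99876170, minus strand) had 6, 0 and 65 reads, then 0, 28 and 79, then 17 and 18 in the same order of libraries. Both Dot1l(fl/fl) libraries held Sox14 reads, at 0.929 and 1.3 CPM, within the Dot1l(+/+) range of 0 to 1.5 CPM. The fitted log2 fold change of Sox14 was 0.92 ± 1.45 in Dot1l(fl/fl) and 1.09 ± 1.31 in Dot1l(fl/+), each against Dot1l(+/+). With 1 library left out the first ran from 0.337 without Dot1l(+/+) 2 to 3.27 without Dot1l(+/+) 3. The direction in Dot1l(fl/+) turned to −0.244 without Dot1l(fl/+) 3. The 95% intervals of Gata2, Tal2 and Sox14 in Dot1l(fl/fl) against Dot1l(+/+) ran from −6.21 to 4.51, from −4.36 to 4.97 and from −2.08 to 3.92, so changes of several fold in either direction lie inside them.

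Libraries at 0 are common among genes this rare, so the gaps were set beside those of genes within 1.5-fold of the same mean CPM. Of 1529 such genes, 5.23% were at 0 in at least as many libraries as Sox14, which was at 0 in 2. The share was 7.89% of 1533 genes for Gata2, at 0 in 5 libraries, and 29.3% of 1674 genes for Tal2, at 0 in 3. Sox14 and Gata2 were thus at 0 in more libraries than most genes of their level. By CV, Sox14 varied more than 94.8%, Gata2 more than 89.8% and Tal2 more than 87.6% of the genes of its level.

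**Figure D3:**
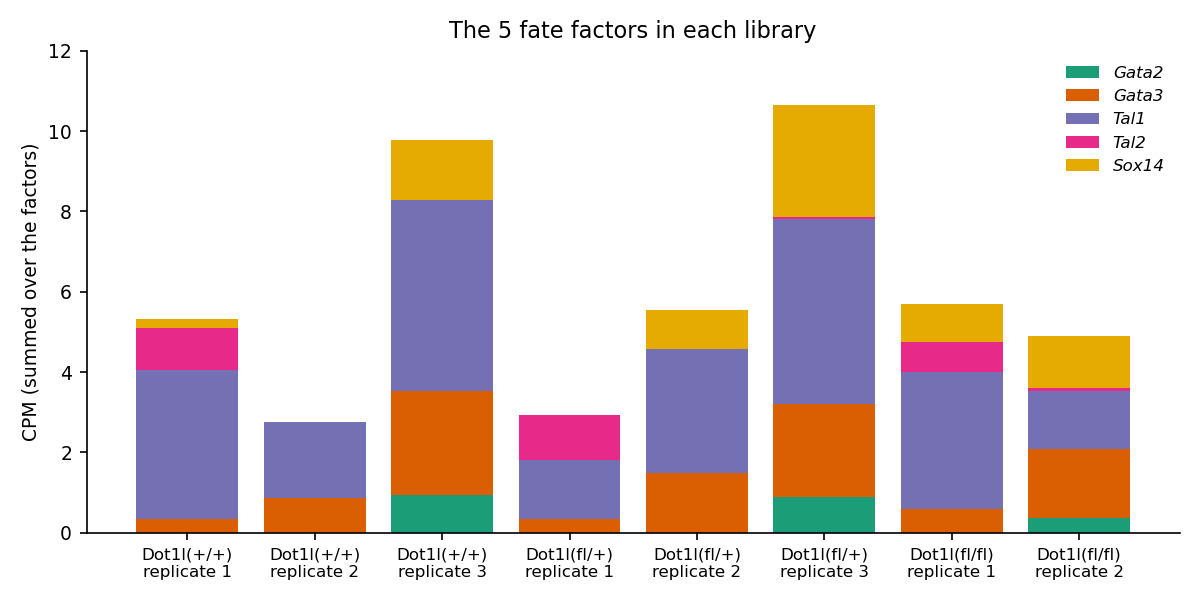
CPM of Gata2, Gata3, Tal1, Tal2 and Sox14, stacked, in each of the 8 libraries. Dot1l(+/+) 3 and Dot1l(fl/+) 3 reach 9.78 and 10.6 CPM in sum and the other 6 lie between 2.76 and 5.68 CPM, and the Tal2 segment is large where those of Gata2 and Gata3 are small or missing.

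Summed over the 5 factors, Dot1l(+/+) 3 and Dot1l(fl/+) 3 stood at 9.78 and 10.6 CPM and the other 6 libraries at 2.76 to 5.68 CPM, across all 3 genotypes. Both high libraries carry replicate number 3. No label says whether that number marks a shared litter, and its part was not tested. Dot1l(+/+) 3 and Dot1l(fl/+) 3 were also the libraries with the most genes detected, 19173 and 19388. Dot1l(+/+) 2 had both the smallest sum and the fewest genes detected, 17607. The summed markers of forebrain-type GABAergic neurons, such as Dlx1 and Meis2, were likewise highest in Dot1l(+/+) 3 and Dot1l(fl/+) 3. They reached 22.1 and 18.1 CPM, against 9.21 to 14.3 CPM in the other 6 libraries. So were those of radial glia and progenitors, at 272 and 252 CPM against 226 to 247 CPM. Microglial markers reached 173 and 181 CPM there, but 182 CPM in Dot1l(fl/fl) 1. The endothelial sum was highest in Dot1l(fl/+) 3 alone, at 20.6 CPM, and the glutamatergic sum in Dot1l(fl/+) 1, at 261 CPM. The part of all these markers in the levels of the 5 factors was not tested. Over the 28 pairs of members Pearson's r across the 8 libraries ran from −0.84 for Gata3 with Tal2 to 0.82 for Gata2 with Gata3, and the smallest permutation p after Benjamini-Hochberg adjustment was 0.236, so no pair passed.

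Among all genes, the 5 whose log2 CPM followed the mean of the 3 transmitter genes most closely were Tcaf2, Gm14634, Gm12791, Hapln1 and Gad1-ps, with r from 0.944 to 0.951 over 8 libraries. Log2 CPM spanned 1.66 to 3.51 for Gad1, 6.33 to 6.75 for Gad2 and 6.73 to 7.29 for Slc32a1. That mean thus varied mainly with Gad1, with which Gad1-ps may share reads. The genes closest to the mean of the 5 factors were Gm14127 (r = 0.966), Tbxas1, Il6ra, AI413582 and Aptx. They head a ranking of 17988 genes over 8 points that share depth and library, in which 20 and 14 genes reached an r above 0.9, and are given as a description.

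The wider pathway was read from lists of related genes. Of 18 genes of GABA metabolism and transport, the members included, 16 were tested in Dot1l(fl/fl) against Dot1l(+/+). None passed the adjusted threshold in edgeR, as for all genes (0.0%), while 3 were higher and 2 lower with p under 0.05 before adjustment, against 4.24% and 5.03% of all genes. The median log2 fold change of the list was −0.08, against 0.00 over all genes. The higher ones were Slc32a1, Got2 and Glul, and the lower ones were Aldh1a1, which can form GABA in DA neurons, and Slc18a2, with Glul named here to complete the count. Both lower genes are also on the list of DA identity genes given below, so the 2 lists are not separate results. Aldh1a1, at 1039 and 688 CPM in Dot1l(fl/fl), overlapped its Dot1l(+/+) range of 975 to 1314 CPM. Got2, the mitochondrial aspartate aminotransferase that also forms glutamate, stood at 81.8, 75.1 and 76.7 CPM in Dot1l(+/+), at 81.8, 83.3 and 85.8 CPM in Dot1l(fl/+) and at 104 and 89.3 CPM in Dot1l(fl/fl). Its log2 fold change in Dot1l(fl/fl) against Dot1l(+/+) was 0.31 ± 0.12 (adjusted p 0.368, edgeR), and 0.196 without Dot1l(fl/fl) 1.

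In the midbrain GABAergic fate network, the 5 factors with their cofactors and neighbours, 27 of 30 genes were tested. With p under 0.05 before adjustment, 0 were higher and 5 lower in the same comparison, against 4.24% and 5.03% of all genes, 0 past the adjusted threshold, and the median was −0.14. The 5 lower genes were Pax5, Tcf4, Tcf3, Tcf12 and Otx1, the last named to complete the count, and not the fate factors themselves. Pax5, a midbrain-hindbrain boundary factor, stood at 25.0, 21.8 and 25.3 CPM in Dot1l(+/+), at 18.2, 20.1 and 14.0 CPM in Dot1l(fl/+), and at 12.1 and 13.0 CPM in Dot1l(fl/fl). Its groups did not overlap in any of the 3 comparisons, each lower with more floxed alleles, where 11.6%, 5.97% and 9.57% of all genes were lower without overlap for fl/fl against +/+, fl/+ against +/+ and fl/fl against fl/+ in turn.

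The log2 fold change of Pax5 was −0.94 ± 0.22 in Dot1l(fl/fl) and −0.46 in Dot1l(fl/+), both against Dot1l(+/+), with an unadjusted p of 0.000244 and an adjusted p of 0.173 in the first (edgeR). With no filter on low counts its adjusted p was 0.0269 (edgeR). The other edgeR settings gave it 0.0826, with a replicate block and an offset for length and GC content, to 0.431, with the compared genotypes alone. DESeq2 gave it no adjusted p. With each library left out in turn its adjusted p ran from 0.0552 to 0.674 (edgeR) for fold changes between −1.0 and −0.885. Tcf4, Tcf3 and Tcf12, the E proteins with which TAL1 and TAL2 form dimers, were also among the lower genes. Tcf4 stood at 338, 302 and 309 CPM in Dot1l(+/+), at 290, 286 and 274 CPM in Dot1l(fl/+) and at 246 and 242 CPM in Dot1l(fl/fl), a log2 fold change of −0.38 ± 0.10 in Dot1l(fl/fl) against Dot1l(+/+) (adjusted p 0.242 in edgeR and 0.00271 in DESeq2). With gene length and GC content taken in as an offset, Tcf4 was at −0.185 (log2), with a p before adjustment of 0.133 (edgeR). The fold change was −0.39 ± 0.13 for Tcf3 and −0.26 ± 0.10 for Tcf12, with adjusted p of 0.331 and 0.422 (edgeR). With the offset Tcf12 was at −0.137 with a p before adjustment of 0.205 (edgeR), so that neither it nor Tcf4 then counts among the lower genes.

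**Figure D4:**
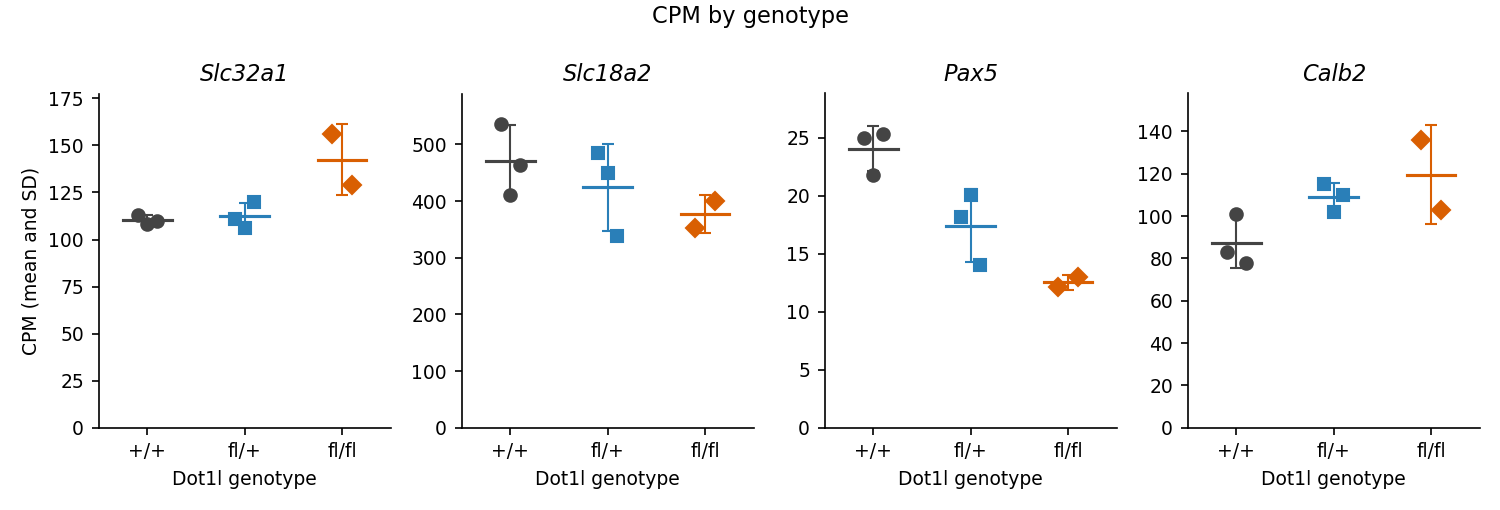
CPM of Slc32a1, Slc18a2, Pax5 and Calb2 in each library by Dot1l genotype, with the mean and SD of each group (n = 3, 3 and 2). Slc32a1 is highest in both fl/fl libraries, and Pax5 is ordered by the number of floxed alleles with no overlap. Calb2 is lowest in +/+, though its highest +/+ library, at 101 CPM, lies just below Dot1l(fl/+) 2, at 102 CPM.

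Among 12 peptides and calcium-binding proteins of GABAergic neurons, 11 were tested, 2 were higher and 1 lower in Dot1l(fl/fl) with p under 0.05 before adjustment, against 4.24% and 5.03% of all genes, and 0 passed the adjusted threshold. Calb2, which encodes calretinin, stood at 83.2, 101 and 77.9 CPM in Dot1l(+/+), at 115, 102 and 110 CPM in Dot1l(fl/+) and at 136 and 103 CPM in Dot1l(fl/fl). Every library with a floxed allele lay above the Dot1l(+/+) libraries, for a log2 fold change of 0.45 ± 0.13 in Dot1l(fl/fl) (adjusted p 0.266, edgeR) and 0.32 in Dot1l(fl/+). The first was 0.634 with an adjusted p of 0.0453 when Dot1l(fl/fl) 2 was left out, and 0.235 with an adjusted p of 0.829 when Dot1l(fl/fl) 1 was left out. It was 0.276 under the replicate block with the length and GC offset. Sst, somatostatin, stood at 12.6, 14.6 and 13.1 CPM in Dot1l(+/+), at 14.7, 12.3 and 17.0 CPM in Dot1l(fl/+) and at 22.9 and 15.6 CPM in Dot1l(fl/fl). Vip, vasoactive intestinal peptide, stood at 5.33, 5.58 and 7.47 CPM, then 2.45, 5.83 and 6.19 CPM, then 2.68 and 2.52 CPM in the same order. For both genes Dot1l(fl/fl) overlapped Dot1l(fl/+). Against Dot1l(+/+) the log2 fold changes of Sst and Vip in Dot1l(fl/fl) were 0.52 ± 0.23 and −1.24 ± 0.43, with adjusted p of 0.477 and 0.331 (edgeR). The value of Sst was 0.216 without Dot1l(fl/fl) 1 and 0.769 without Dot1l(fl/fl) 2. Calretinin and the 2 peptides are also made by other neurons.

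Markers of other cell types bear on what the sort held. DA identity genes had lower fitted values in Dot1l(fl/fl) than in Dot1l(+/+) in 22 of 24 cases, with 15 of 24 lower at p under 0.05 before adjustment against 5.03% of all genes, 0 past the adjusted threshold and a median log2 fold change of −0.27. Forebrain-type GABAergic markers had 0 of 10 tested at that level and a median of −0.03, with 5 fitted higher and 5 lower. On average in Dot1l(+/+) and Dot1l(fl/fl), Dlx1 stood at 2.43 and 1.05 CPM and Dlx5 at 0.376 and 0.977 CPM. Meis2 stood at 2.84 and 3.08 CPM. Glutamatergic markers had 0 of 11, serotonergic markers 0 of 4, microglial markers 0 of 10 and radial glial and progenitor markers 0 of 12. All of these lists had reads in every library. Summed over a list, levels ran from 214 to 261 CPM for glutamatergic and from 8.42 to 14.7 CPM for serotonergic markers. They ran from 124 to 182 CPM for microglial and from 226 to 272 CPM for radial glial and progenitor markers. Most of the glutamatergic sum was Slc17a6, with genotype means of 188 to 196 CPM. Most of the serotonergic sum was Htr1a, with genotype means of 8.57 to 11.5 CPM, against 0.191 to 0.483 CPM for Tph2 and 0.437 to 1.22 CPM for Slc6a4. DA identity genes summed to between 7212 and 9934 CPM. Blood markers had 2 of 8 higher, against 4.24% of all genes, with a summed level of 40.9 CPM in the library labelled Dot1l(fl/fl) 2 and 12.6 to 19.4 CPM in the others, and endothelial markers had 1 of 9 higher, Tek, which was at 0 in all 3 Dot1l(+/+) libraries and in 1 of the Dot1l(fl/fl) libraries. The part of these in the levels of the 8 genes was not tested.

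Between Dot1l(fl/+) and Dot1l(+/+), 0 of the 8 genes had p under 0.05 before adjustment, as against 5.02% of all genes, and 0.0% of all genes passed the adjusted threshold. None of the 8 was without overlap there either, against 5.56% of all genes higher and 5.97% lower. Between Dot1l(fl/fl) and Dot1l(fl/+), 1 of the 8, Slc32a1, had p under 0.05 before adjustment, against 4.02% of all genes, and 0 passed after adjustment, as for all genes (0.0%).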

How the data were processed

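Per the labels, total RNA of FACS-sorted cells was made into libraries with a directional kit. The authors deposited whole-number counts per Ensembl gene in each library, not normalised. The submitters' processing notes name bcl2fastq 2.17, Trimmomatic 0.30, DESeq2 1.10.1 and GRCm38.p4; the aligner, the counter and its strand setting are not given in the sources used here. The authors' comparison tables (mean normalised count, log2 fold change, standard error, Wald statistic, p and adjusted p) were used for gene symbols only, and identifiers without one took it from GENCODE M21. Groups came from the sample titles.

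Counts of 8 libraries were tested in one fit of 3 genotypes with edgeR 4.0.16 in R 4.3.3 (TMM, filterByExpr, quasi-likelihood, Benjamini-Hochberg over 17988 genes, threshold 0.05), tested beforehand on simulated data. CPM used TMM-scaled totals, log2 CPM a prior count of 2, and TPM GENCODE exon lengths. Alternatives were RLE size factors, no filter, DESeq2 1.42.0, the compared genotypes alone, a replicate block, an offset for length and GC content, a prior count of 0.5, the longest transcript, and each library left out. Named were the 8 genes, Dot1l, of each list the 2 most abundant and the 3 of smallest p, and the 5 genes most like each set, and the text gives those that bear on the 8 genes. The members and lists were chosen with earlier results of these data known. Dot1l(fl/fl) 3 was not analysed here.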

Additional observations from a re-analysis of the deposited data

How the results depend on the processing

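No gene passed the adjusted threshold in any comparison in edgeR, while p was under 0.05 before adjustment for 1667 genes between Dot1l(fl/fl) and Dot1l(+/+) (the first comparison), 903 between Dot1l(fl/+) and Dot1l(+/+) (the second) and 723 in Dot1l(fl/fl) set against Dot1l(fl/+) (the third). In that order the number called was 106, 11 and 14 with no filter and, with DESeq2, 183 (of 6828 genes with an adjusted p), 0 and 1. With each library left out it ran from 0 to 75 in the first comparison (75 without Dot1l(+/+) 2, 50 without Dot1l(fl/fl) 2 and 4 without Dot1l(fl/fl) 1), stayed at 0 in the second and ran from 0 to 7 in the third. The cause was not tested.

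Over all genes tested, deviations from the group means had r from −0.031 to 0.0453 over 7 same-numbered pairs of libraries. Over 14 pairs with different numbers r ran from −0.0514 to 0.0449. With so few libraries per genotype and all genes weighed alike, this cannot show whether the numbers mark pairs. Among the members, Gata3 and Gad1 rose with the number in every genotype and Tal2 lay mostly in replicate 1, while Tal1 kept no such order. The share of all genes with such an order was not counted, so these members cannot show it either. No label gives the numbers as litters, so the main fit had no replicate block. With the replicate block 6, 0 and 4 genes were called, and 17, 0 and 9 with the block and the length and GC offset. The sign of some members turned under the block, and under the block with the offset, respectively. In the first comparison Gata2 was at 4.83 and 4.91 and Gata3 at 0.795 and 0.715 (log2). In the third Gad1 was at 0.457 and 0.429, Gata2 at 4.87 and 4.89, Gata3 at 0.592 and 0.533, and Sox14 at 1.63 and 1.59. Under the block with the offset Gata2 was at 0.0203 in the second. None of these passed the threshold.

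In the first comparison DESeq2 gave no adjusted p for Gad1 or the fate factors, so these could not pass there. Of 168 member fold changes under alternatives other than leaving out a library, 13 had the opposite sign and 1, Slc32a1 in DESeq2, passed the threshold. Of 184 with a library left out, 34 had the opposite sign and 0 passed. The ranges that cross 0 are, in the first comparison, Gata2 from −1.43 to 0.17, Gata3 from −1.08 to 0.934, Tal2 from −2.18 to 1.15 and Dot1l from −0.548 to 0.0625. In the second they are Gad1 from −1.02 to 0.028, Gad2 from −0.0723 to 0.141, Slc32a1 from −0.0215 to 0.0668, Gata2 from −0.705 to 0.449, Gata3 from −0.487 to 1.18, Tal1 from −0.595 to 0.156, Tal2 from −3.13 to 0.783 and Sox14 from −0.244 to 3.44. In the third they are Gad1 from −0.385 to 0.661, Gad2 from −0.0434 to 0.169, Gata2 from −1.31 to 0.288, Gata3 from −1.19 to 0.353, Tal1 from −1.09 to 0.148, Tal2 from −2.39 to 3.43, Sox14 from −0.758 to 1.17 and Dot1l from −0.159 to 0.445. Where a genotype was left with 1 library, that library was taken to vary like the other groups. Gata2 and Tal2 have no value where the library left out held all reads of its group. The Dot1l(fl/fl) libraries were the shallowest, and Gata2, Tal2 and Sox14 had few counts and a wide spread between libraries.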
